A study of Rattus norvegicus with 6 samples.

Results

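The ADAMTS, MMP and TIMP genes encode secreted or membrane-bound metalloproteases that cut extracellular matrix proteins, and the inhibitors that block them. Members were chosen by gene symbol alone, and 50 of the 43035 features in the deposited table carried such a symbol, of which 19 were ADAMTS, 5 ADAMTSL, 22 MMP and 4 TIMP genes. They were reported where at least 10 counts were reached in 3 or more libraries, which 28 of the 50 members did, and 22 fell below this level. RNA was sequenced from cardiomyocytes isolated from the hearts of Sprague-Dawley rats (postnatal day 1 in the labels) and grown in primary culture for 48 h after transfection with siRNA. The control group (si-NC, 3 libraries) received a scramble siRNA, and the other group (si-DYRK1A, 3 libraries) received an siRNA against DYRK1A, a dual-specificity protein kinase. The labels describe these libraries as biological replicates, and no strain, age or medium differed between the groups. The hearts were digested with trypsin and collagenase, and non-cardiomyocytes were reduced only by letting them attach to the dish, so other cell types remained in the cultures.

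Depth was similar in the groups, with 10325074 to 11921772 counts per si-NC library and 10703229 to 11723974 counts per library labelled si-DYRK1A. The targeted gene did not verify the labels at the level of RNA. The annotated row of Dyrk1a held at most 3 counts in any library, and a transcript added by the authors across that gene held 777, 919 and 968 counts in si-NC libraries 1, 2 and 3 and 971, 851 and 944 counts in the 3 libraries with the si-DYRK1A label. Its log2 fold change was 0.08 (95% confidence interval -0.04 to 0.20, edgeR adjusted p = 0.374). For the protein, the authors report knockdown by immunoblotting in neonatal cardiomyocytes that received siRNA against DYRK1A. Whether the sequenced cultures were among those blotted is not stated. Because the RNA did not verify the labels, every direction below compares libraries by their label. Of 5 tested cardiomyocyte markers 3 were called higher, while Tnnt2 (log2 fold change -0.14) and Myl3 (-0.11) were not called. The annotated rows of Tnni3, Myh6, Myh7 and Myl2, which define cardiomyocytes, were at 0 in all libraries. These rows were covered by added transcripts as well.

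ADAMTS enzymes carry a reprolysin-type catalytic domain followed by thrombospondin repeats that anchor them in the matrix, and ADAMTSL proteins keep the repeats but lack the protease domain. MMPs are made as inactive zymogens whose propeptide must be removed, and TIMPs bind the active site of MMPs and of some ADAMTS enzymes. In the heart these families take part in valve and ventricular wall formation and in the turnover of collagen and proteoglycans after injury.

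In all, 10 of the MMP genes stand in 1 cluster on chromosome 8 (Rnor_6.0, 5522739 to 5901049, 378.3 kb). The promoters of several clustered MMP genes are known for an AP-1 element, the site of Fos and Jun proteins. The element TGAGTCA and its reverse complement TGACTCA were searched on both strands from 250 bases before to 50 bases after each gene start in RefSeq (build GRCr8), which held promoters for 39 members. The other 11 members, all outside the cluster, had none and were not searched, among them Mmp2, Mmp9, Mmp14, Mmp16, Mmp17 and Mmp19. The element was found in 6 of the 39 searched (15.4%), all 6 in the cluster. It was found in 1384 of the 27457 genes of the promoter table (5.04%). The stretches from -120 to -1 relative to the gene start are shown for these 6 genes, with the element in capitals, because it stands at a similar distance from the start in each, and Mmp8 is shown as a neighbour without it. All lie on the + strand, at chr8:12782709-12782828 for Mmp13, chr8:12866532-12866651 for Mmp12, chr8:12925161-12925280 for Mmp3, chr8:12943333-12943452 for Mmp1, chr8:12974587-12974706 for Mmp10, chr8:13132923-13133042 for Mmp7 and chr8:13008770-13008889 for Mmp8.
Mmp13: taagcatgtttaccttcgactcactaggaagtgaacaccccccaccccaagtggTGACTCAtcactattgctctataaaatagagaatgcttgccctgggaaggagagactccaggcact
Mmp12: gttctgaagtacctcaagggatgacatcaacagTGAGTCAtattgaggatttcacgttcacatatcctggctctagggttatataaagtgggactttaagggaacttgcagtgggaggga
Mmp3: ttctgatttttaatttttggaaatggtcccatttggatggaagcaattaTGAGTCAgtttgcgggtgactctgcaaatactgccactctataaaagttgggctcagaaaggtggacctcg
Mmp1: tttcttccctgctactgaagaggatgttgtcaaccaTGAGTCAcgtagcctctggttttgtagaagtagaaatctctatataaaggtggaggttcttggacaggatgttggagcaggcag
Mmp10: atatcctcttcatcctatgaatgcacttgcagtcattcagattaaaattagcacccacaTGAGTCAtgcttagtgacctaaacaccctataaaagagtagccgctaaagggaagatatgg
Mmp7: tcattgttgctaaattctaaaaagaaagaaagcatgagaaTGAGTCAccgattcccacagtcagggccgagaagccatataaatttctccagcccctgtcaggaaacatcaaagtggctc
Mmp8: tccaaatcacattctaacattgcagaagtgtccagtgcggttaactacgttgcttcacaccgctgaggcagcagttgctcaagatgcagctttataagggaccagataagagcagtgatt
The first base of the element was at -66 in Mmp13, -87 in Mmp12, -71 in Mmp3, -84 in Mmp1, -61 in Mmp10 and -80 in Mmp7. These matches describe the letters in the window and were not tested as binding sites.

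All 28 members that reached the count level were tested by the quasi-likelihood test of edgeR, and a member was called at an adjusted p below 0.05 over the 15513 features tested. Adamts7 and Adamts13 reached 10 counts in 5 libraries and the other tested members in all 6. Of the 28, 7 passed the threshold as higher and 7 as lower under the si-DYRK1A label, which is 14 of the 28. Over all features tested, 15.2% were called, 8.03% higher and 7.19% lower. The groups did not overlap for 16 members, against 31.5% of all features, and 2 of these, Mmp16 and Mmp23, were not called. The median log2 fold change of the 28 members was 0.14 and that of all features 0.002, and the median size of the change regardless of sign was 0.28 for the members, 0.18 for all features and 0.38 for all called features. In limma fits to log2(FPKM + 1) and log2(FPKM + 0.1), Adamts15, Adamts5, Adamts8, Mmp17, Mmp9 and Timp2 kept their direction but were not called, and without a filter on low FPKM values the calls of Adamts17, Adamts19, Mmp12 and Mmp19 were lost too. Calls of both directions fell within the ADAMTS and within the MMP family. In bulk RNA, fewer cells of a type and less RNA per cell cannot be told apart.

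**Figure D1:**
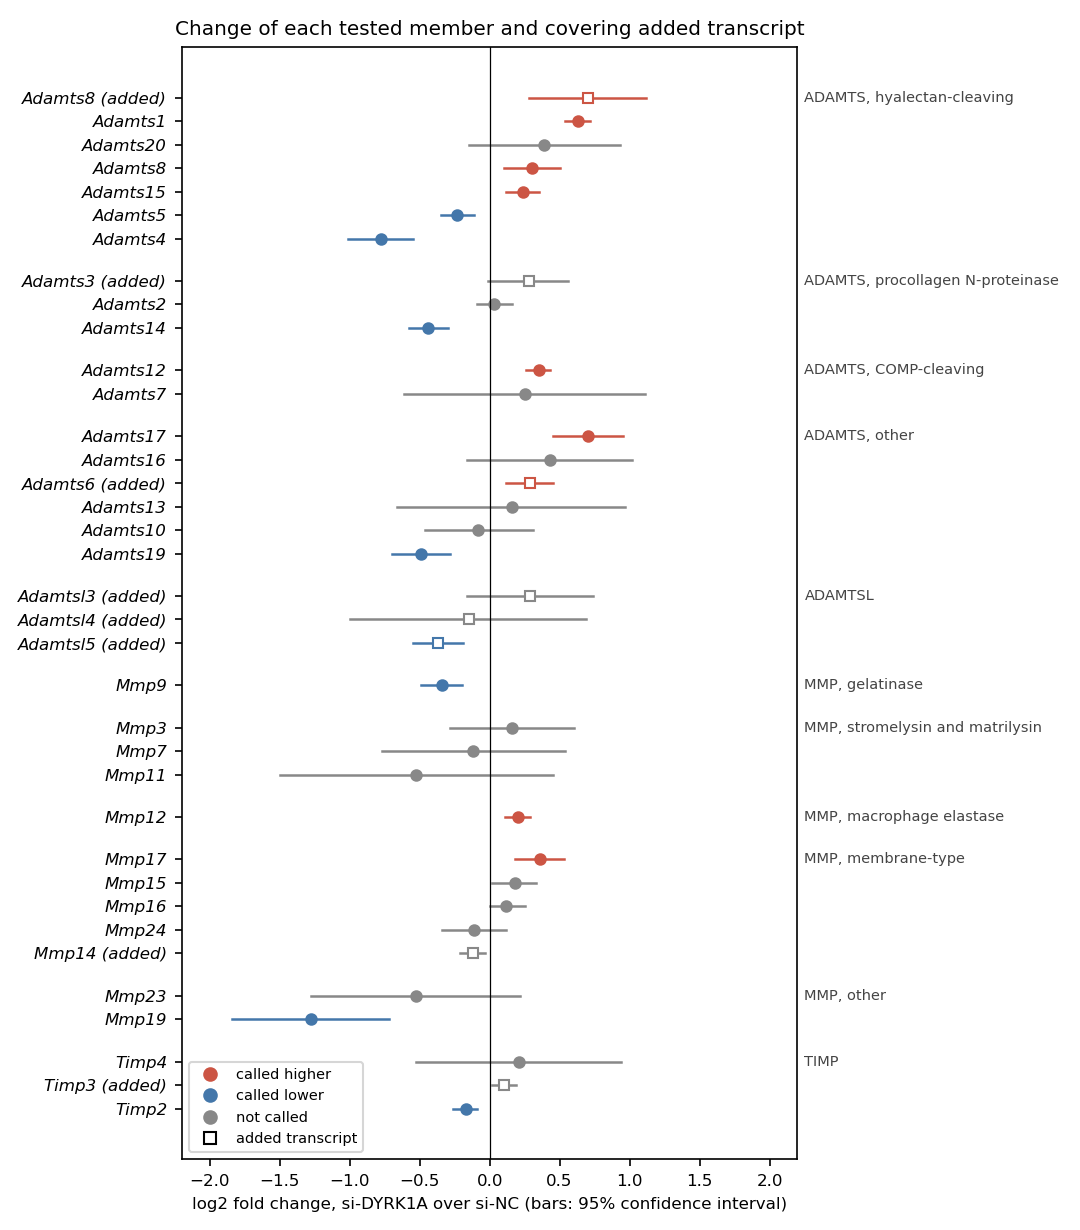
Change of each tested member, ordered by role: the x axis gives the log2 fold change of the libraries labelled si-DYRK1A over si-NC, circles are gene rows, open squares are added transcripts that cover a member, and bars are 95% confidence intervals. Red marks called higher, blue called lower and grey not called, and Adamts17, Adamts1 and the added transcript at Adamts8 lie farthest to the right while Mmp19 at -1.28 lies farthest to the left.

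Among the ADAMTS enzymes that cleave aggrecan and versican, the large hyaluronan-binding proteoglycans, 6 of 7 members were tested, of which 3 were called higher and 2 lower. Adamts1, a versican-cleaving protease of the developing heart (chromosome 11, 25342126 to 25350974), was the most abundant ADAMTS gene row. Its level in FPKM, the authors' counts scaled by gene length and library, was 63.7, 69.3 and 64.7 in si-NC libraries 1, 2 and 3 and 101.8, 100.3 and 102.8 FPKM in the libraries labelled si-DYRK1A. All 3 of the latter lay above all controls, and the spread within each group was small beside the gap. The log2 fold change was 0.63 (SE 0.0437, edgeR adjusted p = 2.27e-09), a fold of 1.55. Adamts15 (chromosome 8, 31977001 to 32000378) held 836, 895 and 976 counts in si-NC and 1032, 999 and 1102 counts in si-DYRK1A libraries, or 13.0 ± 0.480 and 15.3 ± 0.388 FPKM (SD, n = 3 each). It rose by 0.24 on the log2 scale (SE 0.0552, edgeR adjusted p = 0.00448).

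Adamts8 (chromosome 8, 32018560 to 32037531) is a related protease with a low level in these cultures. It held 183, 221 and 211 counts in si-NC and 241, 245 and 256 counts in si-DYRK1A libraries, so that the groups did not overlap. Its log2 fold change of 0.30 (SE 0.0966) was past the threshold in edgeR (adjusted p = 0.0377) but not in DESeq2 (adjusted p = 0.156), and it was lost when any single library other than si-NC replicate 2 was left out, with adjusted p from 0.0577 to 0.146. An added transcript over 92.6% of the gene, with the protease and thrombospondin domains, held 46, 43 and 39 counts against 61, 74 and 69 counts. That transcript took 19.7% of the counts at the locus and was called higher as a feature of its own (log2 fold change 0.70, SE 0.202, edgeR adjusted p = 0.0214, DESeq2 adjusted p = 0.0862).

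The lower members of the same group were the aggrecanases Adamts4 and Adamts5. Adamts4 (chromosome 13, 89622632 to 89634419) held 198, 244 and 274 counts in si-NC and 140, 131 and 136 counts in si-DYRK1A libraries. The latter were close together and all below the lowest control, and the gene fell by 0.78 on the log2 scale (SE 0.110, edgeR adjusted p = 3.37e-05). Adamts5 (chromosome 11, 25410975 to 25456836) was the second most abundant ADAMTS gene row by FPKM. It had 41.3, 42.3 and 36.5 FPKM in si-NC and 32.7, 35.3 and 33.9 FPKM in si-DYRK1A libraries. It fell by 0.23 (SE 0.0571, edgeR adjusted p = 0.00766), and the call was lost without si-NC replicate 1 (adjusted p = 0.0537). Adamts20 was not called, with a log2 fold change of 0.39 (edgeR adjusted p = 0.356) on 25 to 49 counts per library.

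Adamts1 and Adamts5 are neighbours on chromosome 11, 60000 bases apart with no other feature between them, and their calls had opposite signs. The ratio of their FPKM values was 1.54, 1.64 and 1.77 in si-NC and 3.11, 2.84 and 3.03 in si-DYRK1A libraries. These ratios did not overlap. That was fixed in advance, because all si-DYRK1A libraries lay above the controls for Adamts1 and below them for Adamts5. An exact two-sided permutation test gave p = 0.1, the smallest it can give with 3 libraries against 3. This value was fixed in the same way, so the ratio adds no support beyond the calls of the genes. Adamts15 and Adamts8, 18181 bases apart on chromosome 8, changed in the same direction, and their ratio of 2.28, 2.02 and 2.31 in si-NC and 2.13, 2.03 and 2.15 in si-DYRK1A libraries overlapped between the groups (exact permutation p = 0.4).

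**Figure D2:**
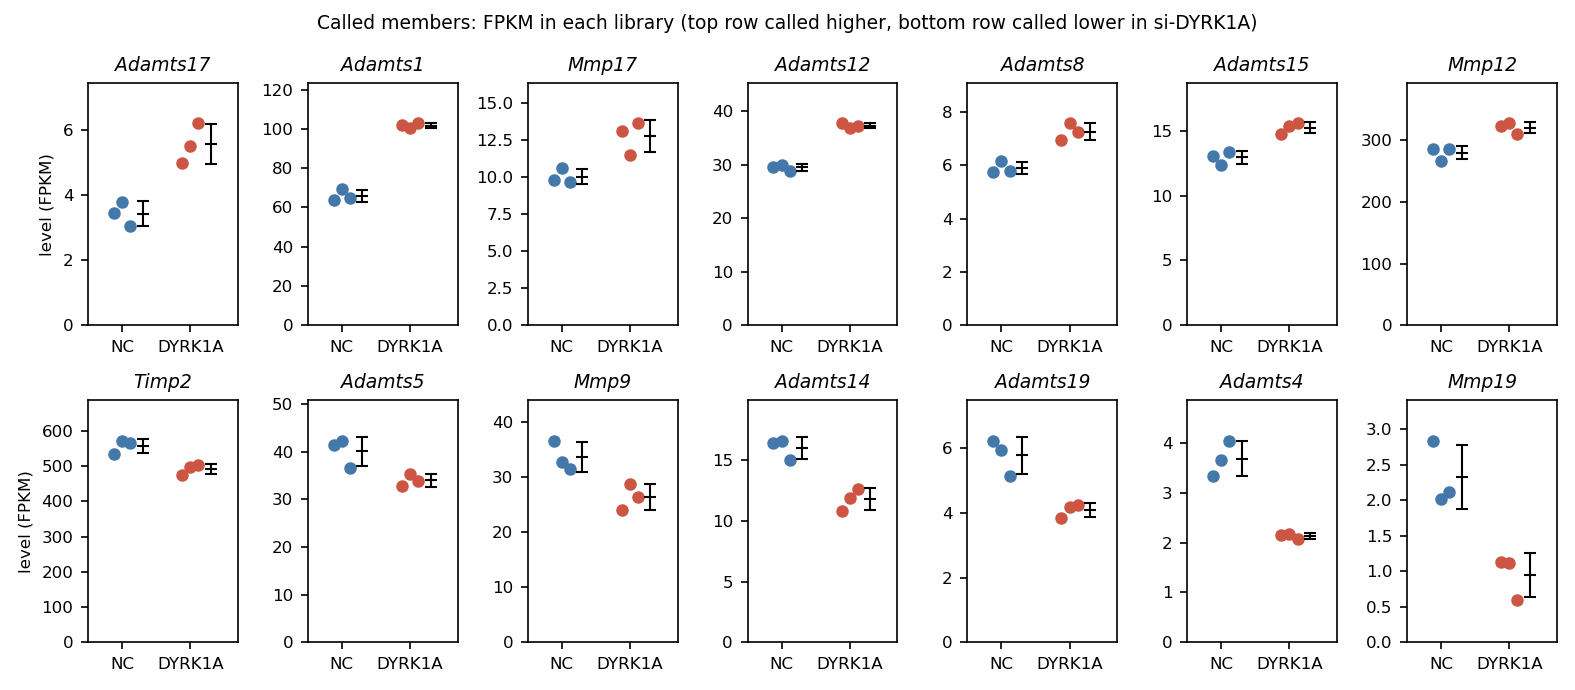
Levels of the 14 called members: each panel plots FPKM on a linear axis from 0, with 1 point per library (blue si-NC, red labelled si-DYRK1A) and the mean with SD beside them (n = 3 per group). In every panel the points of the groups do not overlap, from Timp2 at 473.6 to 571.7 FPKM down to Mmp19 at 0.598 to 2.84 FPKM.

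Of the procollagen N-proteinases, which remove the amino-terminal propeptide of fibrillar collagens, Adamts14 fell and Adamts2 was not called. Adamts14 (chromosome 20, 30812353 to 30888751) held 854, 973 and 892 counts in si-NC and 614, 631 and 725 counts in si-DYRK1A libraries, a log2 fold change of -0.44 (SE 0.0672, edgeR adjusted p = 8.74e-05). For Adamts2, which held 845 to 1006 counts in each library, the log2 fold change was 0.03 (95% confidence interval -0.09 to 0.16). The gene row of Adamts3 was at 0, and the added transcript across it held 104 to 145 counts, with a log2 fold change of 0.28 (edgeR adjusted p = 0.195).

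Adamts12, one of the proteases that cut cartilage oligomeric matrix protein (COMP), rose. It lies on chromosome 2 (61039053 to 61340697) and held 2676, 3058 and 2982 counts in si-NC and 3727, 3396 and 3745 counts in si-DYRK1A libraries. Levels were 29.5 ± 0.585 and 37.3 ± 0.436 FPKM (SD, n = 3 each), and the log2 fold change was 0.35 (SE 0.0423, edgeR adjusted p = 5.9e-06). Adamts7, the other COMP-cleaving member, had 8 to 23 counts per library and a log2 fold change of 0.25 with a 95% confidence interval of -0.61 to 1.11, so that a change was not detectable at this depth.

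Among the remaining ADAMTS genes, 1 of 5 tested members was called higher and 1 lower. Adamts17, a protease linked to fibrillin microfibrils (chromosome 1, 127802978 to 128124171), held 122, 152 and 124 counts in si-NC and 193, 199 and 244 counts in si-DYRK1A libraries. The log2 fold change was 0.70 (SE 0.121, edgeR adjusted p = 3.06e-04). Adamts19, a gene known for a role in heart valve development (chromosome 18, 53915807 to 54099120), held 286, 308 and 270 counts against 192, 196 and 216 counts and fell by 0.49 on the log2 scale (SE 0.101, edgeR adjusted p = 0.00168). Not called were Adamts16 (log2 fold change 0.43, adjusted p = 0.351), Adamts13, which cleaves von Willebrand factor (0.16), and Adamts10 (-0.08). Adamts13 and Adamts10 changed sign when single libraries were left out, as did Adamts2 and Adamts7.

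The row of Adamts6 held at most 7 counts, but the added transcript over it, with a spacer and thrombospondin domains, held 304, 360 and 383 counts in si-NC and 414, 416 and 421 counts in si-DYRK1A libraries. It was called higher (log2 fold change 0.29, SE 0.0800, edgeR adjusted p = 0.0163), but not by DESeq2 (adjusted p = 0.0677). For the ADAMTSL genes, matrix proteins without protease activity, no gene row reached the count level, and the highest count was 1. The added transcript across Adamtsl5 held 506, 625 and 529 counts in si-NC and 380, 418 and 460 counts in si-DYRK1A libraries and was called lower (log2 fold change -0.37, SE 0.0848, edgeR adjusted p = 0.00412). Those across Adamtsl3 and Adamtsl4 held 37 to 60 and 10 to 26 counts and were not called.

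Among the gelatinases, which digest denatured collagen and basement membrane collagen, Mmp9 was called lower. Mmp9 (chromosome 3, 161413298 to 161421520) held 1214, 1226 and 1190 counts in si-NC and 872, 970 and 971 counts in si-DYRK1A libraries, or 33.6 ± 2.69 and 26.4 ± 2.32 FPKM (SD, n = 3 each). Every si-DYRK1A library lay below every control, and the log2 fold change was -0.34 (SE 0.0689, edgeR adjusted p = 0.00238). Neutrophils are a known source of this enzyme, and the summed level of 6 neutrophil markers was 1.53 to 2.11 CPM (counts scaled to library size) in si-NC and 0.942 to 1.41 in si-DYRK1A libraries, with none of them tested and none at 0 in all libraries; their part in the result was not tested. Mmp2 was listed at 0 in all libraries in its own row and in the added transcript that covers all of it.

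Mmp12, macrophage elastase, was the most abundant MMP gene row and the only clustered MMP that was called. On chromosome 8 (5606592 to 5616493), it held 98.49% of the counts of the 10 clustered genes. Levels were 286.5, 267.4 and 286.9 FPKM in si-NC and 323.3, 327.8 and 310.9 FPKM in si-DYRK1A libraries, which lay above the controls. The log2 fold change was 0.20 (SE 0.0434, edgeR adjusted p = 0.00282), a fold of 1.15. Macrophage markers were present, with 7 of 10 tested, Cd68 listed at 0 and a summed level of 276.8 to 292.5 CPM in si-NC and 276.0 to 317.7 in si-DYRK1A libraries. Lyz2 was called higher (log2 fold change 0.41, edgeR adjusted p = 1.78e-04) and the other 6 were not called. Their log2 fold changes were -0.54 (Adgre1), -0.21 (Ptprc), -0.19 (Mrc1), -0.13 (Csf1r), 0.07 (C1qb) and 0.15 (C1qa). For Adgre1 and Ptprc the groups did not overlap. The part of these cells in the result was not tested.

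The other genes of the cluster were low or at 0. Mmp3, a stromelysin that also activates other MMPs, held 34, 47 and 50 counts in si-NC and 49, 48 and 46 counts in si-DYRK1A libraries (log2 fold change 0.16, edgeR adjusted p = 0.681). Mmp7, or matrilysin, held 17 to 34 counts (log2 fold change -0.12, edgeR adjusted p = 0.861), and the sign was reversed without si-NC replicate 3. Mmp1 and Mmp27 were at 0 in all libraries, and Mmp1b and Mmp20 held at most 2 counts.

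Below the count level, the collagenases Mmp13 and Mmp8 had more counts in the libraries labelled si-DYRK1A. Mmp13 held 7, 3 and 4 counts in si-NC and 18, 20 and 9 counts in si-DYRK1A libraries, and Mmp8 held 3, 2 and 4 against 9, 10 and 11 counts. In neither gene did the groups overlap. They entered only the fit with no filter on low counts, where the edgeR adjusted p was 0.0106 for Mmp13 (log2 fold change 1.74, SE 0.519) and 0.0756 for Mmp8 (1.71, SE 0.661). Mmp10 held 4, 6 and 11 against 8, 15 and 4 counts, with overlapping groups. Of the 6 genes with an AP-1 element shown above, Mmp12 was called, Mmp3 and Mmp7 were tested and not called, Mmp13 and Mmp10 were below the count level and Mmp1 was at 0.

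**Figure D3:**
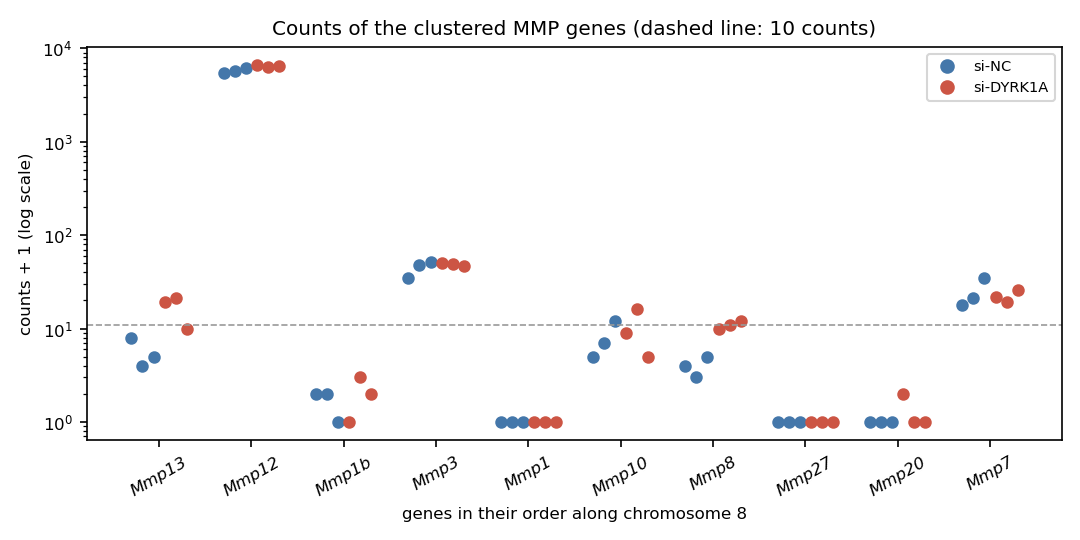
Counts of the 10 clustered MMP genes in their order along chromosome 8: the y axis gives counts + 1 on a log scale, with 1 point per library (blue si-NC, red labelled si-DYRK1A) and a dashed line at 10 counts. Mmp12 stands at 5400 to 6645 counts, far above Mmp3 at 34 to 50 counts, and the red points of Mmp13 and Mmp8 lie above their blue points.

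The membrane-type MMPs are anchored at the cell surface. Mmp17 (chromosome 12, 30702571 to 30728655), held by a lipid anchor, was called higher, with 290, 355 and 328 counts in si-NC and 426, 348 and 448 counts in si-DYRK1A libraries. In counts the groups overlapped, but scaled to depth and length they were 10.0 ± 0.519 and 12.8 ± 1.10 FPKM (SD, n = 3 each) without overlap. The log2 fold change was 0.36 (SE 0.0863, edgeR adjusted p = 0.0065), and leaving out si-DYRK1A replicate 3 ended the call (adjusted p = 0.0504). Mmp15 and Mmp16 were the uncalled members with the smallest p, with log2 fold changes of 0.18 (edgeR adjusted p = 0.123) and 0.12 (edgeR adjusted p = 0.201), and Mmp24 had -0.11 (edgeR adjusted p = 0.572). Mmp16 was 16.1, 16.4 and 16.3 FPKM in si-NC and 17.5, 17.5 and 18.0 FPKM in si-DYRK1A libraries.

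Mmp14, which activates the Mmp2 zymogen at the cell surface, was at 0 in its own row, while the added transcript across it, with the matrixin and hemopexin domains, was at 66.9 to 76.1 FPKM. Its counts were 3321, 3830 and 3995 in si-NC and 3360, 3250 and 3410 in si-DYRK1A libraries. The log2 fold change of -0.12 (SE 0.0427) stood at the threshold, with an edgeR adjusted p of 0.0559 as a separate feature and 0.0453 in the fit that summed gene rows and their covering transcripts.

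Of the other MMP genes, Mmp19 showed the largest change by size among the 28 tested members. Mmp19 (chromosome 7, 3216497 to 3224201) encodes a widely expressed secreted MMP and held 60, 48 and 51 counts in si-NC and 26, 24 and 14 counts in si-DYRK1A libraries. It fell by 1.28 on the log2 scale (SE 0.270, edgeR adjusted p = 0.00197), a fold of 0.410. The call was lost in limma fits to log2(FPKM + 0.1) (adjusted p = 0.0511) and to log2(FPKM + 1) with no filter (adjusted p = 0.0871). Mmp23 held 19, 20 and 17 against 15, 13 and 10 counts, a log2 fold change of -0.53 that was not called (SE 0.360, edgeR adjusted p = 0.368). Mmp11, or stromelysin-3, held 109, 117 and 54 counts in si-NC and 83, 39 and 71 counts in si-DYRK1A libraries. Its libraries varied widely within both groups, the log2 fold change of -0.53 was not called (SE 0.397, edgeR adjusted p = 0.469), and leaving out si-NC replicate 3 gave -0.84 (adjusted p = 0.0171). Mmp28 was at 0 and Mmp21 held at most 2 counts.

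The inhibitor Timp2, which blocks MMPs and also takes part in the activation of Mmp2 by Mmp14, was called lower. Its level was the highest among the member rows and covering added transcripts, some of which held few or no counts. Timp2 (chromosome 10, 107338465 to 107386072) stood at 533.2, 571.7 and 564.1 FPKM in si-NC and 473.6, 498.2 and 502.0 FPKM in si-DYRK1A libraries. It fell by 0.17 on the log2 scale (SE 0.0418, edgeR adjusted p = 0.00584), a fold of 0.886. Timp3, the matrix-bound inhibitor with the broadest action on ADAMTS enzymes, was at 0 in its row, and the added transcript across it was at 70.1, 70.6 and 72.5 FPKM in si-NC and 78.3, 74.9 and 75.3 FPKM in si-DYRK1A libraries. The groups did not overlap, but the log2 fold change of 0.10 (SE 0.0422) was not called (edgeR adjusted p = 0.105). Timp4, an inhibitor found mainly in heart, held 15, 16 and 13 against 15, 16 and 19 counts (log2 fold change 0.21, edgeR adjusted p = 0.762). Timp1 held 0, 0 and 0 against 2, 0 and 0 counts in its row and 2, 3 and 3 against 5, 8 and 3 counts in the added transcript.

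Summed over the 4 TIMP gene rows, levels were 534.0, 572.4 and 564.8 FPKM in si-NC and 474.6, 499.1 and 503.0 FPKM in si-DYRK1A libraries. The 22 MMP gene rows summed to 380.4, 359.2 and 372.0 against 408.5, 415.3 and 398.8 FPKM, and the 19 ADAMTS gene rows to 198.4, 205.4 and 190.6 against 231.0, 234.5 and 238.7 FPKM. Over the gene rows, the TIMP sum was thus lower and both protease sums were higher in the libraries labelled si-DYRK1A, without overlap. Single genes carried the gene-row sums. Timp2 held nearly all of the TIMP sum, Mmp12 most of the MMP sum and Adamts1 the largest part of the ADAMTS sum. These rows left out Timp3 and Mmp14, whose counts lay in added transcripts. With added transcripts included, TIMP levels were 604.4, 643.3 and 637.6 FPKM in si-NC and 553.5, 574.9 and 578.6 FPKM in si-DYRK1A libraries. MMP levels were then 452.7, 433.3 and 448.1 against 475.6, 484.8 and 465.7 FPKM. Mmp2 and Timp1 were at or near 0 in both kinds of row, so the sums do not cover whole families.

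Of the 50 members, 19 were covered over at least 50% of their length by a transcript on the same strand that the authors had added to the annotation, 12 below the count level and 7 above it. Counts at these loci were divided between rows in an uneven way. At Mmp14, Timp3, Adamts3 and Adamtsl3, Adamtsl4 and Adamtsl5 the added transcript held all counts, at Adamts6 it held 99.4%, whereas at Adamts2, Adamts7 and Mmp23 it held none. Among the 8 added transcripts that were tested, 2 were called higher, 1 lower and 5 were not called, beside 15.2% called over all features. How reads that match both rows were counted is not given in the sources used here, so a 0 at a covered member, Mmp2 and Timp1 included, does not show that the gene was silent.

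**Figure D4:**
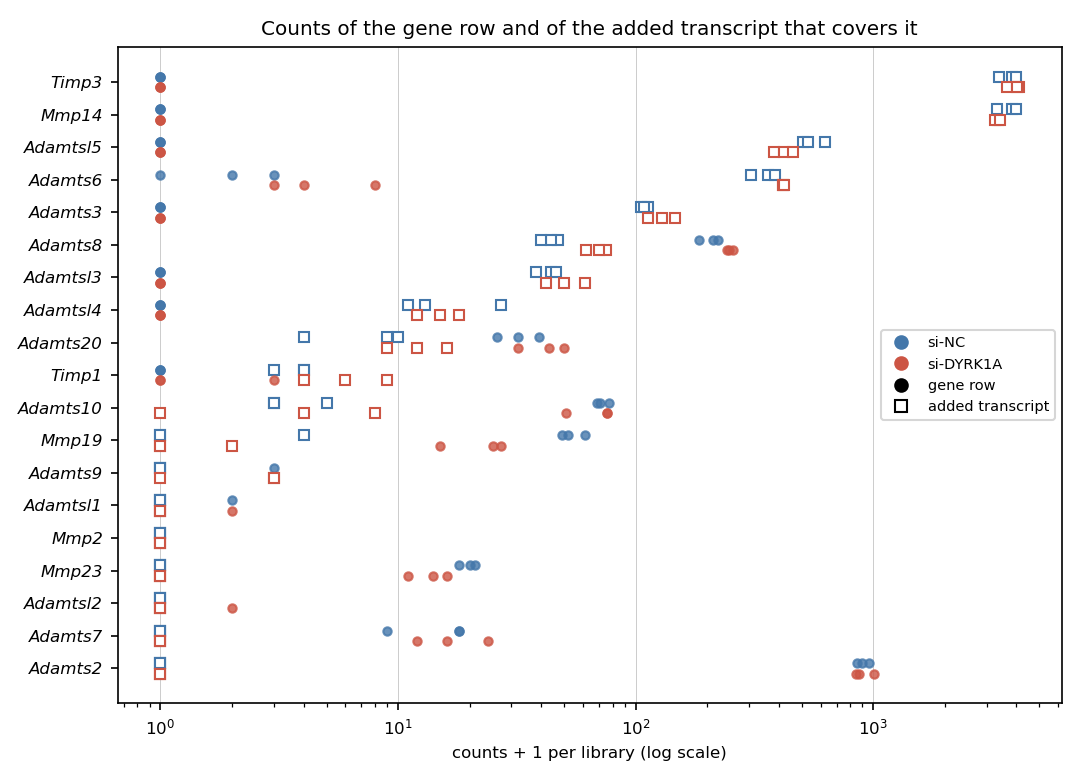
Counts at the 19 members covered by an added transcript: the x axis gives counts + 1 per library on a log scale, with filled circles for the gene row, open squares for the added transcript, blue for si-NC and red for the libraries labelled si-DYRK1A. Timp3 and Mmp14 have gene rows at 0 and added transcripts at 3250 to 4102 counts, whereas Adamts2 has 845 to 1006 counts in its gene row and 0 in the added transcript.

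A list of genes outside these families held their activators and inhibitors, other metalloproteases and matrix substrates. It had 66 genes, of which 64 were matched and 39 tested. Of these 39, 9 were called higher and 9 lower, with a median log2 fold change of -0.05. Over all features tested, 8.03% were called higher and 7.19% lower. Among activators and inhibitors, 3 of 15 were called higher and 4 lower. Plau, the urokinase plasminogen activator, fell from 23.3 ± 2.24 to 17.9 ± 1.17 FPKM (SD, n = 3 each; log2 fold change -0.38, edgeR adjusted p = 0.00336). Lrp1, an endocytic receptor that clears proteases from the cell surface, and Reck, a membrane-anchored MMP inhibitor, each fell by 0.31 on the log2 scale (edgeR adjusted p = 1.11e-04 and 3.77e-04). Furin, which removes the propeptide of many ADAMTS and membrane-type MMPs, had 15 to 26 counts in its row and a log2 fold change of -0.03 (edgeR adjusted p = 0.973). An added transcript that covers Furin held 84 to 127 counts and was not called either (log2 fold change 0.06, edgeR adjusted p = 0.861).

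In the list part of other metalloproteases, 3 of 9 tested were called higher and 3 lower. One of those called lower, Pcolce, was listed there although it enhances a protease and is not one itself. Pappa, a protease of insulin-like growth factor binding proteins, rose from 6.59 ± 0.491 to 13.0 ± 0.693 FPKM (SD, n = 3 each; log2 fold change 0.98, edgeR adjusted p = 7.88e-09), and Pcolce, the enhancer of procollagen C-proteinase, fell from 784.1 ± 7.99 to 595.5 ± 24.8 FPKM (log2 fold change -0.39, edgeR adjusted p = 6.87e-07). Adam17, the sheddase of tumour necrosis factor, fell by 0.22 on the log2 scale (edgeR adjusted p = 0.00191). Among the matrix substrates, 3 of 15 were called higher and 2 lower. The proteoglycan lumican (Lum) rose by 0.59 on the log2 scale (edgeR adjusted p = 1.21e-08), and biglycan (Bgn) fell by 0.17 (edgeR adjusted p = 0.00573).

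Several of these outside genes also had rows below the test's filter that added transcripts covered. Of 12 such transcripts that were tested, 5 were called higher, 2 lower and 5 were not called, beside 15.2% called over all features. The largest log2 fold change was at Acan, which encodes the proteoglycan aggrecan, with 13, 21 and 15 counts in si-NC and 45, 35 and 64 counts in si-DYRK1A libraries (1.57, SE 0.285, edgeR adjusted p = 4.80e-04). The others called higher were those across Tll1 (0.84), Adam23 (0.48), Thbs1 (0.27) and Adam12 (0.25), of which the last also covers another gene. Called lower were Pcsk7 (-0.35) and Adam33 (-0.26), the latter lost in DESeq2 (adjusted p = 0.0709). The transcripts across Plaur (-0.21, edgeR adjusted p = 0.214), Bmp1 (-0.03, adjusted p = 0.846) and Adam10 (0.08, adjusted p = 0.526) were not called, and those across Plat and Vcan were too low to test. The called transcripts among these were named after their values were seen.

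**Figure D5:**
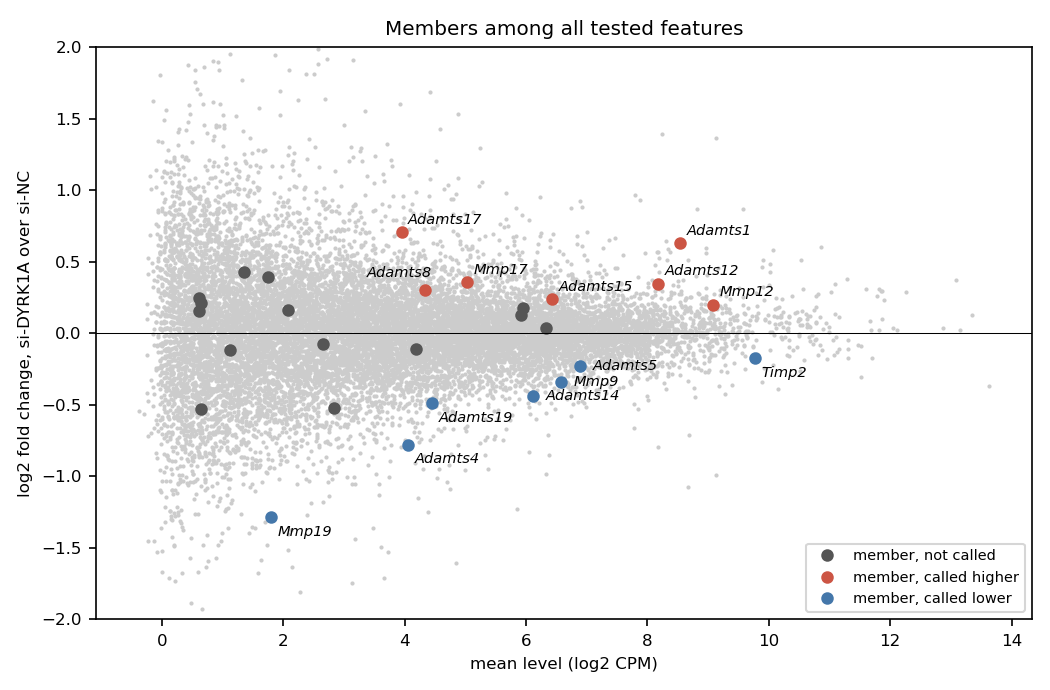
Members among all 15513 tested features: the x axis gives the mean level as log2 CPM, the y axis the log2 fold change of the libraries labelled si-DYRK1A over si-NC, grey dots are all features and large points are the 28 tested members. The y axis ends at 2 in both directions, which leaves out 17 features, and the called members spread from the low Mmp19 to Timp2 and Mmp12 at the right.

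Markers of several cell types differed between the groups alongside these genes. The 3 tested mesothelial markers were all called lower (Wt1, Upk3b and Msln; Upk1b was at 0), of which Wt1 and Msln were not called by DESeq2 (adjusted p = 0.0968 and 0.0511), with a sum over the 4 listed of 59.0 to 63.0 CPM in si-NC and 43.4 to 48.2 in si-DYRK1A libraries. Of 6 tested endothelial markers, Cdh5, Tie1 and Tek were called lower. Erg (log2 fold change 0.25, groups without overlap), Emcn (0.03) and Kdr (-0.01) were not called. The endothelial list summed to 171.6 to 188.0 against 139.9 to 147.3 CPM, with Cldn5 at 0. Cardiomyocyte markers summed to 11159.2 to 12253.2 against 13570.2 to 14445.7 CPM. Nppa dominated this sum, with a mean of 7556.6 CPM in si-NC and 9781.9 CPM in si-DYRK1A libraries. Actn2, Nppa and Pln were called higher, although for Pln the groups overlapped and DESeq2 made no call (adjusted p = 0.0736). Myl3 (log2 fold change -0.11, groups without overlap) and Tnnt2 (-0.14) were not called. Of 6 tested fibroblast markers, Lum and Postn were called higher, Postn on a row of 71 to 182 counts that an added transcript also covers. Col1a1 had a log2 fold change of -0.37 without overlap. It was not called by edgeR (adjusted p = 0.0869) but passed in DESeq2 (adjusted p = 0.0122) and limma-voom (adjusted p = 0.00447). Col3a1 (0.02), Tcf21 (0.14) and Dcn (0.25) were not called. The fibroblast list, dominated by Col1a1 and Col3a1, summed to 21531.1 to 26244.7 against 20368.2 to 21106.6, with Pdgfra and Ddr2 at 0. Neither of the 2 tested smooth muscle markers was called (555.6 to 562.7 against 544.8 to 568.7, with Acta2, Myh11 and Smtn at 0). The part of these cell types in the changes of the protease and inhibitor genes was not tested.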

How the data were processed

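The members, the gene lists and the tests were chosen with earlier results of these data known. Reads were aligned by the authors with HISAT2 (genome Rnor_6.0). The authors deposited raw counts per feature and FPKM values, which are scaled by feature length and library. Not given in the sources used here are the counting tool, the annotation release and whether strand was used. The submitters' processing notes name Bowtie 0.12.2 and mm8, a mouse build, instead, and the labels give a TruSeq kit where the study's methods give NEBNext. Of the 43035 features, 10152 are transcripts the authors added and 10353 carry no gene name, with 17.18% to 17.56% of the counts. They were kept in the library sizes and the fit because each has its own identifier. Positions are those of the deposited table. Promoters came from RefSeq (GRCr8), and 11 members had none there and were not searched.

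Counts of all 6 libraries were fitted with edgeR 4.0.16 in R 4.3.3 (TMM, filterByExpr with a minimum count of 10 and a total of 15, robust quasi-likelihood test, group as the only term). Benjamini-Hochberg adjustment covered all 15513 features, with a threshold of 0.05. The biological coefficient of variation was 8.82%. Counts per library limited the precision of low genes, and p-values measure the spread between these samples. FPKM served for levels. Alternatives were DESeq2 1.42.0, limma-voom and limma 3.58.1 on log2(FPKM + 1) and log2(FPKM + 0.1), with a filter of FPKM above 0.5, other normalizations and filters, a stricter threshold of 0.01, each library left out, the replicate block, and sums with added transcripts covering at least 50% of a gene (GenomicRanges 1.54.1). The code was tested on simulated data.

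Genes named were every called member, every TIMP gene, the 6 members with the highest FPKM, the 4 uncalled members with the smallest p, and members called by edgeR or DESeq2 alone, with the others given by role. Outside the families, the called gene with the smallest p per list part and direction and genes set by name were given, except 1 gene that is not reported here. Added transcripts and genes below the count level were described after their values were seen.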

Additional observations from a re-analysis of the deposited data

How the results depend on the processing

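Of 500 values of the 28 tested members under alternatives, 457 kept their direction and side of the threshold, 34 lost the call, 1 gained it and 8 changed sign. The counts of members called higher and lower (7 and 7) fell to 4 and 4 with limma on log2(FPKM + 1), to 4 and 3 on log2(FPKM + 0.1) and to 2 and 2 on log2(FPKM + 1) with no filter, and the other proteolysis and matrix genes called lower fell from 9 to 5, 5 and 3. All of these FPKM fits lost Adamts15, Adamts5, Adamts8, Mmp17, Mmp9 and Timp2, the one with no filter also lost Adamts17, Adamts19, Mmp12 and Mmp19, and the one on log2(FPKM + 0.1) also lost Mmp19; the cause was not tested. Leaving out single libraries gave 5 to 7 members called higher and 6 to 8 lower, and 9 outside genes higher and 7 to 11 lower. Log2 fold changes then ranged over 0 for 5 uncalled members, from -0.16 to 0.06 for Adamts10, -0.17 to 0.46 for Adamts13, -0.02 to 0.08 for Adamts2, -0.12 to 0.48 for Adamts7 and -0.25 to 0.19 for Mmp7. With the replicate block, 6 members were called higher and 7 lower, Adamts8 (adjusted p = 0.051) being the only call lost. The deviations of same-numbered libraries correlated at 0.0535, -0.0291 and -0.00156, which gave no sign that the replicate numbers pair the libraries. Whether same-numbered cultures shared an isolation cannot be told from these values. Summed with added transcripts, 8 members were called higher and 9 lower. Low counts limit Adamts7, Adamts13, Mmp23 and Timp4, each with at most 23 counts per library.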
